A study of Mus musculus with 8 samples.

Results

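A set of 9 genes of collagen maturation was followed in mouse glioblastoma and normal mouse brain: the lysyl oxidase family (Lox, Loxl1, Loxl2, Loxl3 and Loxl4), the lysyl hydroxylases (Plod1, Plod2 and Plod3) and the collagen chaperone gene Serpinh1. They were chosen by name as the set of collagen crosslinking genes, with earlier results of these data known. All 9 were present among 23523 genes in the table. RNA was sequenced from 5 glioblastomas and 3 normal brains. To induce the tumours, a lentivirus had delivered the activated oncogene HrasG12V together with a short hairpin RNA against p53. They were taken when the mice reached the clinical endpoint, and GFP+ tumour was freed of adjoining brain under a dissecting microscope. The labels describe the normal samples only as normal mouse brain, so a control vector, the brain region, and the strain, sex and age of the mice are unknown here, as is the promoter or cell type that drove the vector. Whether each sample was a separate animal is not stated, and p-values therefore measure only the spread between these samples, which may be technical.

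Collagen is modified on lysine residues at 2 stages. Inside the endoplasmic reticulum, the Plod enzymes add hydroxyl groups to lysines, and the Serpinh1 product, known as HSP47, binds the triple helix and keeps it from aggregating before secretion. Outside the cell, the copper-dependent Lox enzymes oxidise lysine and hydroxylysine, and the resulting aldehydes join neighbouring collagen or elastin molecules. Plod2 acts on the telopeptides at the ends of the chains, so that its activity directs crosslinks toward the more stable hydroxylysine-derived kind. In normal brain, fibrillar collagen is largely limited to the meninges and the walls of vessels.

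Plod2 is made in 2 splice forms that differ by a single exon of 63 bases. The exon lies in coding sequence at chr9:92601985-92602047 on the plus strand of GRCm38, where it is exon 14 of 20 and adds 21 residues without a shift of frame. The deposited table counts the forms separately, so the sequence that tells them apart is shown from the GENCODE transcripts, with the exon in capitals and 30 bases of each neighbouring exon in lower case.
Plod2 with the exon: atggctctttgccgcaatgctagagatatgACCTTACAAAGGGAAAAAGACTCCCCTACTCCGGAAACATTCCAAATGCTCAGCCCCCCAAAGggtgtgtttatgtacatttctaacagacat
Plod2 without the exon: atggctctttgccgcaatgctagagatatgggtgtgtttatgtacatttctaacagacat

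The 250 bases before the start of transcription are also shown for the 4 of the 9 genes that the RefSeq promoter table of GRCm38.p6 holds. Lox and Plod2 are not among them. Capitals mark ACGTG and GCGTG on either strand, the letters at the core of the site that hypoxia-inducible factors bind. Plod1 lies at chr4:147936777-147937026 on the minus strand, Plod3 at chr5:136986769-136987018 on the plus strand, Serpinh1 at chr7:99353240-99353489 on the minus strand and Loxl4 at chr19:42612807-42613056 on the minus strand.
Plod1: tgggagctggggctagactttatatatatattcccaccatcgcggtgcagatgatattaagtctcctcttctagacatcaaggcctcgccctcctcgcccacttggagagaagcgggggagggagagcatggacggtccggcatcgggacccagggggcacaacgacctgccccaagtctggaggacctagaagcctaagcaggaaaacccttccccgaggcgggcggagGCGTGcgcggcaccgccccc
Plod3: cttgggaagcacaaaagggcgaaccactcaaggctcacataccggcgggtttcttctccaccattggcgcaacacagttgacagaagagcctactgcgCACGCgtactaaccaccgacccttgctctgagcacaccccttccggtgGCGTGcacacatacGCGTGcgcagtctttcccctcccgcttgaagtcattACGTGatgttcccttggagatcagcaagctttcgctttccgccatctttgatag
Serpinh1: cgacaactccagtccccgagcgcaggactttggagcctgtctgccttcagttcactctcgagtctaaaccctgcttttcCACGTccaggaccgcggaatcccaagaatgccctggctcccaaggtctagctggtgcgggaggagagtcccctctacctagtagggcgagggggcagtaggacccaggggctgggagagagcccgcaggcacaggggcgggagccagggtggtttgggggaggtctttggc
Loxl4: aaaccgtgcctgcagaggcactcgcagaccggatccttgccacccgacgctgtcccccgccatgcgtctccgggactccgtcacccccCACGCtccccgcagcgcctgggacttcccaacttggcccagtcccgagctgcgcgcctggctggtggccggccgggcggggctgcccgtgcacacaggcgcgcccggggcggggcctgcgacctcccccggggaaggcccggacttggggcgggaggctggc
The Plod3 window held 4 matches, and the Plod1, Serpinh1 and Loxl4 windows held 1 each. Of 32851 promoters of the same length in the table, 38.6% held at least 1 match and 2.58% held at least 4. A match describes the letters and does not show that a factor binds there, and a part of hypoxia in the levels of these genes was not tested.

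Libraries held 5490351 to 15564280 fragments in glioblastomas and 6315241 to 7719196 in normal brains. Levels are given as CPM (counts of fragments scaled to library size with TMM factors), and as FPKM where genes are compared with each other. Trp53, the target of the hairpin, had 2.74 to 5.92 CPM in glioblastomas against 4.74 to 7.21 CPM in normal brains (edgeR adjusted p = 0.262), and Hras, the oncogene of the vector, had 327 to 479 CPM in glioblastomas against 94.2 to 103 CPM in normal brains. Of 14641 tested genes, 37.1% were called higher in glioblastoma and 33.9% lower at an adjusted p under 0.05 (edgeR's quasi-likelihood test with p-values adjusted by Benjamini-Hochberg over all tested genes), and counts of called genes are read against these shares. Among markers of neurons 6 of 8 were lower in glioblastoma, and among markers of macrophages and microglia 8 of 9 were higher. All 7 oligodendrocyte markers were lower, and of 7 astrocyte markers 4 were lower and 3 did not pass. In such pieces of tissue, more cells of a type and more RNA per cell cannot be told apart. The summed level of 9 endothelial markers was 268 to 528 CPM in glioblastomas against 110 to 130 CPM in normal brains. Of the 9, 8 were higher and 1 did not pass. That of 10 pericyte and smooth muscle markers was 242 to 875 CPM in glioblastomas against 109 to 129 CPM in normal brains. Of the 10, 5 were higher, 1 (Myh11) was lower and 4 did not pass. Acta2 alone averaged 203 ± 264 CPM in glioblastomas (SD, n = 5) and 8.95 ± 1.79 CPM in normal brains (SD, n = 3). For 8 fibroblast and meningeal markers the summed level was 419 to 1455 CPM in glioblastomas against 487 to 622 CPM in normal brains. Of the 8, 3 were higher and 3 lower, shares near those of all genes. That sum was carried by Pdgfra (572 CPM on average in glioblastomas and 111 CPM in normal brains) and by Thy1, which neurons also express (40.4 CPM in glioblastomas and 371 CPM in normal brains). Among the others the directions were mixed. Lum and Fap were higher (log2 fold changes 4.55 and 3.56), Ogn and Slc6a13 were lower (-2.82 and -2.39), and Dcn and Igf2 did not pass. The part of these cell types in the results below was not tested.

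All 9 genes were higher in glioblastoma, and every tumour lay above every brain for each of them. The fold changes ran from 4.94-fold for Plod1 to 188-fold for Loxl2. Over all 14641 tested genes 37.1% were called higher, and every tumour lay above every brain for 36.1% of tested genes. Only 5 of the 9 genes, Loxl3, Plod1, Plod2, Plod3 and Serpinh1, reached the filter on low counts in the brains by themselves. Lox, Loxl1, Loxl2 and Loxl4 passed it through the tumours, so they could not have been called lower, and the count of 9 carries no weight of its own. The median log2 fold change was 5.37 over the 9 genes and 3.77 over the 5 that reached the filter in the brains. Over all tested genes it was 0.06, and -0.14 over the 12954 of them that reached the filter in the brains. The rise was larger than that of Plod1, the smallest of the 9, in 13.9% of tested genes.

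**Figure D1:**
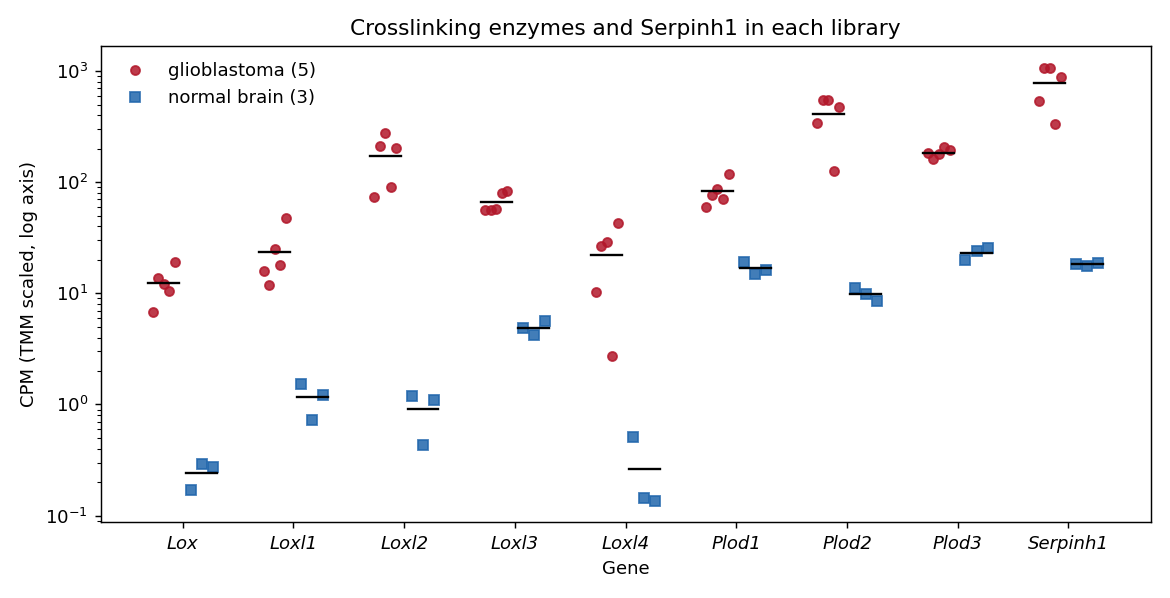
Level of each gene in every library, in TMM scaled CPM on a log axis. Red circles are the 5 glioblastomas, blue squares the 3 normal brains, and black lines the group means. For all 9 genes the lowest tumour lies above the highest brain, with the narrowest gap for Plod1 (3.08 times) and the widest for Loxl2 (61.6 times).

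**Figure D2:**
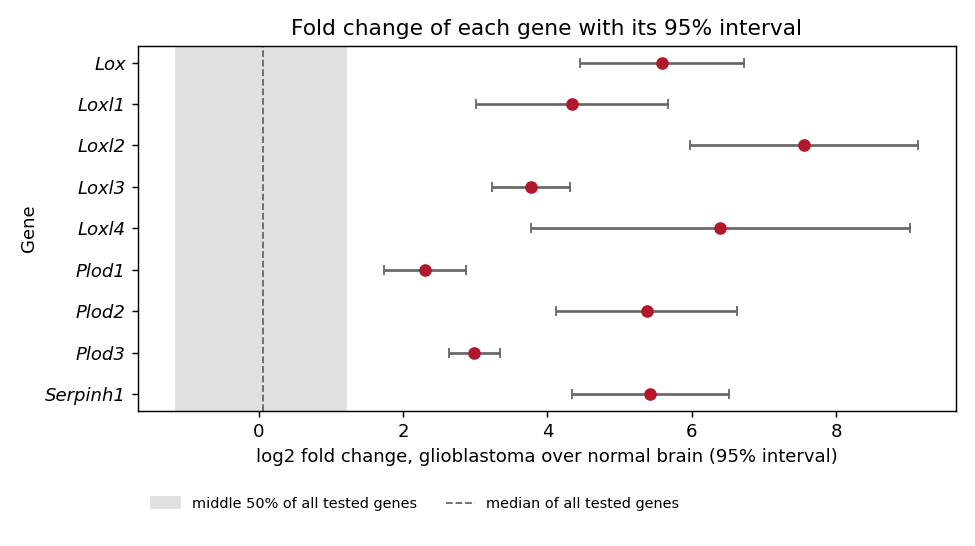
Log2 fold change of glioblastoma over normal brain for each gene, with its 95% interval from the edgeR fit (5 tumours, 3 brains). The grey band spans the middle 50% of all tested genes and the dashed line is their median of 0.06. All 9 intervals lie to the right of the band, and those of Loxl4 and Loxl2 are the widest.

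Among the lysine hydroxylases, which act on collagen inside the cell, Plod2 had the largest change. Plod2 stood at 342, 546, 547, 125 and 475 CPM in glioblastomas 1 to 5, against 11.2, 9.81 and 8.45 CPM in normal brains 1 to 3. The tumours averaged 407 ± 178 CPM (SD, n = 5) and the brains 9.81 ± 1.36 CPM (SD, n = 3). The log2 fold change between them was 5.37 ± 0.55 (SE), with an edgeR adjusted p = 3.97e-05. Tumour 4 was the lowest of the glioblastomas and still stood 11.2 times above the highest brain. An RNA gene, B430319G15Rik, overlaps Plod2 in the RefSeq annotation.

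Plod3, which also carries glycosyltransferase activity toward hydroxylysine, was the steadiest of the 9 genes among the tumours. It stood at 181, 161, 181, 206 and 195 CPM in glioblastomas 1 to 5, against 20.1, 24.2 and 25.5 CPM in normal brains 1 to 3. The tumours differed by at most 1.28 times, about as little as the brains (1.27 times). Its log2 fold change was 2.99 ± 0.15 (SE; edgeR adjusted p = 1.1e-06). Plod1, which hydroxylates lysines in the helical part of collagen and is mutated in a form of Ehlers-Danlos syndrome in humans, had the smallest change. Its level was 59.4, 77.4, 87.5, 70.9 and 119 CPM in glioblastomas 1 to 5, against 19.3, 15.0 and 16.1 CPM in normal brains 1 to 3. No tumour overlapped a brain, and the log2 fold change was 2.30 ± 0.25 (SE; edgeR adjusted p = 5.29e-05).

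The order of the 3 hydroxylases per length thus differed between the groups. Plod2 averaged 110 ± 48.7 FPKM in glioblastomas (SD, n = 5) and 2.65 ± 0.36 FPKM in normal brains (SD, n = 3), where it was the lowest of the 3 in each brain. Its share of the summed FPKM of Plod1, Plod2 and Plod3 was 55.5%, 66.8%, 64.1%, 28.5% and 57.0% in glioblastomas 1 to 5, against 19.9%, 17.9% and 15.1% in normal brains 1 to 3. Every tumour share was above every brain share. The mean difference was 36.8 percentage points, with a two-sided exact permutation p = 0.0357, the smallest that 56 splits of 5 and 3 samples allow. Adjusted over the 3 share values examined (this one, the Lox share and the Plod2 splice form share, below), p was 0.107 by the same exact test, and the difference did not pass. With so few splits, an adjusted p under 0.05 was possible only if all 3 shares had reached the smallest p. The adjusted test therefore could not decide about this share alone. In tumour 4, Plod3 held the largest share (53.0%), as it did in every brain (40.7% to 51.9%). Plod3 held 22.3% to 33.4% in the other tumours.

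The form of Plod2 with the extra exon, which is the form linked to hydroxylation of telopeptides, held most Plod2 fragments in every library. By the authors' estimates it took 72.2%, 82.8%, 85.8%, 57.0% and 84.6% of Plod2 fragments in glioblastomas 1 to 5, against 80.7%, 99.9% and 99.9% in normal brains 1 to 3. The groups overlapped, since brain 1 lay below 3 of the tumours. The mean difference was -17.1 percentage points (two-sided exact permutation p = 0.143; 0.179 adjusted over the 3 share values). The brains held 66, 68 and 62 Plod2 fragments, against 2155 to 5874 in the tumours, so the split is poorly determined in brain.

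**Figure D3:**
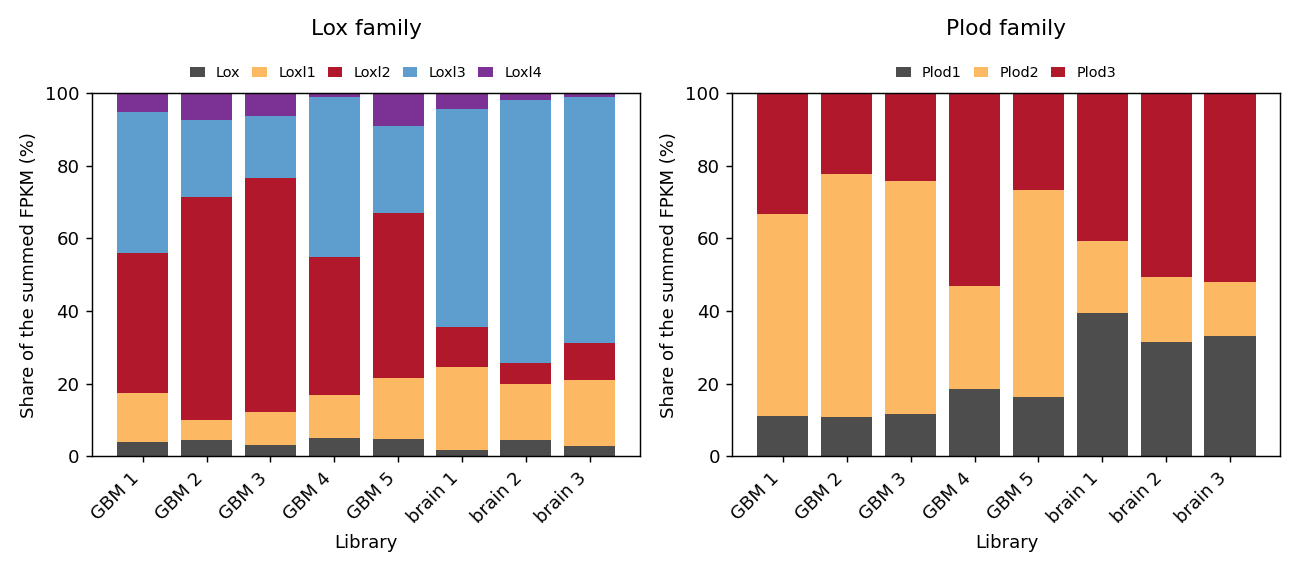
Share of each gene in the summed FPKM of its family, in percent, for the Lox family (left) and the Plod family (right). Each bar is a library, with the 5 glioblastomas (GBM 1 to 5) to the left of the 3 normal brains. Loxl2 holds 37.9% to 64.4% of the Lox family in the tumours and 5.80% to 11.1% in the brains, and the Plod2 share is 28.5% in tumour 4 and 55.5% to 66.8% in the other tumours.

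Serpinh1 was the most abundant of the 9 genes per length in both groups. It stood at 535, 1074, 1076, 333 and 893 CPM in glioblastomas 1 to 5, against 18.3, 17.6 and 18.7 CPM in normal brains 1 to 3. The brains lay within 1.06 times of each other, and the tumours spread over 3.23 times with tumour 4 lowest. The log2 fold change was 5.43 ± 0.48 (SE; edgeR adjusted p = 1.76e-05), and the mean level was 362 ± 158 FPKM in glioblastomas (SD, n = 5) and 8.45 ± 0.23 FPKM in normal brains (SD, n = 3).

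Among the extracellular oxidases, Loxl2 changed most. Loxl2 crosslinks collagen IV of basement membranes and carries scavenger receptor domains, which Loxl3 and Loxl4 share and Lox and Loxl1 lack. Its level was 72.9, 211, 280, 89.7 and 203 CPM in glioblastomas 1 to 5, against 1.18, 0.433 and 1.09 CPM in normal brains 1 to 3. The lowest tumour was 61.6 times the highest brain. The log2 fold change was 7.56 ± 0.70 (SE; edgeR adjusted p = 2.21e-05), resting on 7906 fragments in the tumours and 18 in the brains. The 95% interval of the fold ran from 62.7 to 564, so the size of this rise is known only within broad limits.

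Loxl3, required for formation of the palate and spine in mice, was the most abundant lysyl oxidase of normal brain. Loxl3 stood at 56.5, 56.1, 57.5, 80.7 and 83.5 CPM in glioblastomas 1 to 5, against 4.91, 4.18 and 5.59 CPM in normal brains 1 to 3. Its rise was the smallest of the family, 3.77 ± 0.24 on the log2 scale (SE; edgeR adjusted p = 2.92e-06). The tumours fell into a narrow range of 1.49 times, and tumours 4 and 5 were the highest.

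Loxl4 varied most among the tumours. Loxl4 had 10.2, 26.9, 28.9, 2.74 and 42.7 CPM in glioblastomas 1 to 5, against 0.507, 0.144 and 0.136 CPM in normal brains 1 to 3. The highest tumour stood 15.6 times above tumour 4, which in turn lay 5.39 times above the highest brain. The log2 fold change was 6.39 ± 1.15 (SE; edgeR adjusted p = 0.00106), or 7.18 without brain 1, which held 3 of the 5 brain fragments.

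Lox, the founding member of the family, and Loxl1, which is needed to maintain elastic fibres in mice, were the remaining oxidases. Lox stood at 6.82, 13.7, 12.1, 10.5 and 19.3 CPM in glioblastomas 1 to 5, against 0.169, 0.289 and 0.273 CPM in normal brains 1 to 3. Loxl1 stood at 15.8, 11.9, 24.8, 17.9 and 47.2 CPM in glioblastomas 1 to 5, against 1.52, 0.721 and 1.23 CPM in normal brains 1 to 3. Tumour 5 was the highest for both genes and no tumour overlapped a brain. The log2 fold changes were 5.58 ± 0.50 for Lox (SE; edgeR adjusted p = 1.75e-05) and 4.35 ± 0.58 for Loxl1 (SE; edgeR adjusted p = 0.000191). Lox rested on only 5 fragments in the brains.

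In these samples the makeup of the Lox family differed between the groups. Loxl2 held 49.5 ± 12.6% of the family's summed FPKM in glioblastomas (SD, n = 5) and 9.04 ± 2.85% in normal brains (SD, n = 3), whereas Loxl3 held 29.0 ± 11.7% in glioblastomas and 66.6 ± 6.45% in normal brains. The ranges of tumours and brains did not overlap for either gene, and these shares were not tested. In the 3 brains together, Loxl2 rested on 18 fragments and Loxl3 on 99. In tumour 4, Loxl3 held more than Loxl2 (44.1% against 37.9%), and in tumour 1 they were nearly equal (38.8% and 38.7%). The summed level of the family was 35.6 to 83.4 FPKM in glioblastomas and 1.42 to 2.05 FPKM in normal brains. Lox itself remained a small part, with 4.01%, 4.46%, 3.13%, 4.98% and 4.90% in glioblastomas 1 to 5, against 1.85%, 4.50% and 2.96% in normal brains 1 to 3 (mean difference 1.19 percentage points; two-sided exact permutation p = 0.179; 0.179 adjusted over the 3 share values).

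Ordered by mean FPKM, the genes in glioblastoma ran Serpinh1, Plod2, Plod3, Loxl2, Plod1, Loxl3, Loxl1, Loxl4 and Lox, from 362 to 2.65 FPKM. Neighbours in this order were not always separated within a tumour. Plod2 exceeded Plod3 in 4 of 5 tumours, Loxl2 exceeded Plod1 in 3, Loxl1 exceeded Loxl4 in 4, and Loxl4 exceeded Lox in 4. In normal brain the order was Serpinh1, Plod3, Plod1, Plod2, Loxl3, Loxl1, Loxl2, Lox and Loxl4, from 8.45 to 0.047 FPKM, and each gene exceeded the next in all 3 brains except Lox, which exceeded Loxl4 in 2.

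Across the tumours the genes followed more than a single pattern. Plod2, Serpinh1, Loxl2, Loxl4 and Lox were above their own mean in tumours 2, 3 and 5 and below it in tumours 1 and 4. Loxl3 and Plod3 were above theirs in tumours 4 and 5, and Loxl1 and Plod1 in tumours 3 and 5. Tumour 4 was the lowest for Loxl4, Plod2 and Serpinh1, at 2.43, 1.52 and 1.09 log2 units below the mean of the 5 tumours. The same tumour was the highest for Plod3 and second highest for Loxl3. Tumour 1 was the lowest for Lox, Loxl2 and Plod1, and tumour 2 for Loxl1, Loxl3 and Plod3. Tumour 4 also had the lowest summed level of 14 collagen genes, at 1379 CPM, against 2598 to 5173 CPM in the other tumours, and the lowest of the macrophage and microglia markers, at 626 CPM against 848 to 1641 CPM. Its oligodendrocyte marker sum was the highest of the tumours, at 930 CPM against 260 to 628 CPM, and lay below the normal brains (3189 to 6210 CPM). Its astrocyte marker sum was also the highest, at 2578 CPM against 910 to 1457 CPM, and lay below the normal brains (4707 to 5188 CPM). Its neuron marker sum was the lowest, at 257 CPM, against 473 to 926 CPM in the other tumours. Its fibroblast and meningeal marker sum was the highest, at 1455 CPM against 419 to 1038 CPM. In the tumours that sum was carried mainly by Pdgfra (572 ± 495 CPM, SD, n = 5), so it is not a measure of fibroblasts by itself. The endothelial and pericyte sums of tumour 4 were the lowest, at 268 and 242 CPM, against 373 to 528 and 283 to 875 CPM. The part of these cell types in the differences between tumours was not tested. Without tumour 4 the log2 fold changes of Plod2, Serpinh1 and Loxl4 were 5.62, 5.63 and 6.69.

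**Figure D4:**
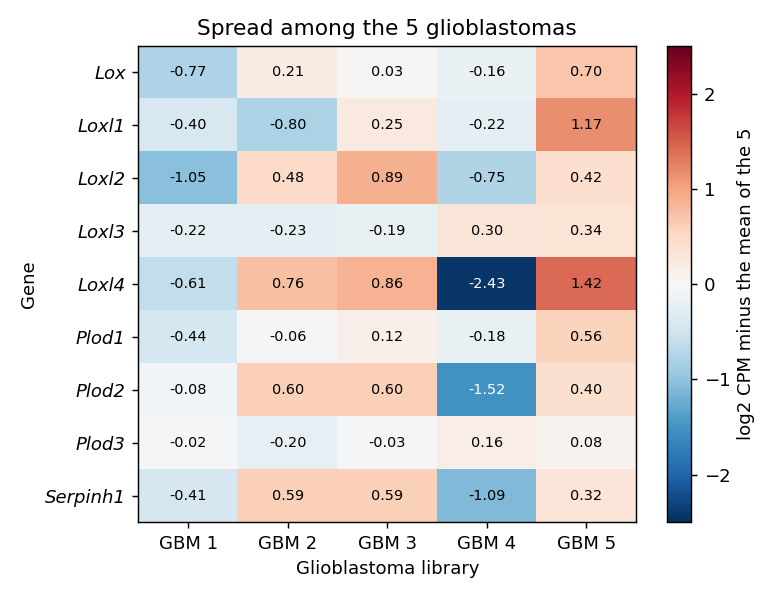
Log2 CPM of each gene in each glioblastoma (GBM 1 to 5) minus the mean of that gene over the 5 tumours. Red is above and blue below the mean. Loxl4, Plod2 and Serpinh1 are lowest in tumour 4 (-2.43, -1.52 and -1.09), and the row of Plod3 stays between -0.20 and 0.16.

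Likeness between genes was measured as the root mean square difference of log2 CPM over the 8 libraries after each gene's mean was taken off, a description that mainly reflects the size of the difference between groups. Of the 36 pairs among the 9 genes, Plod2 and Serpinh1 were the closest, at 0.23. Outside the set, the nearest gene was Sgpl1 for Plod3 (0.10), Zfp36l2 for Plod1 (0.13), Tspo for Serpinh1 (0.14), Kif20b for Plod2 (0.19), Sparc for Loxl3 (0.20), Ctla2b for Lox (0.25), Clec7a for Loxl2 (0.28), Bcl6b for Loxl1 (0.33) and Il1r2 for Loxl4 (0.41). Sparc encodes a matrix protein that binds collagen, and it averaged 2299 CPM in glioblastomas and 185 CPM in normal brains.

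Most of the other genes that fold and modify collagen in the cell were higher as well. Of 16 genes of collagen hydroxylation and folding, 11 were higher and 1 was lower, with a median log2 fold change of 2.13. The median was 2.31 over the 14 that reached the filter on low counts in the brains by themselves. Fkbp10, a prolyl isomerase of the endoplasmic reticulum that acts with Plod2, stood at 113 ± 37.5 CPM in glioblastomas (SD, n = 5) and 6.19 ± 0.53 CPM in normal brains (SD, n = 3), which is 4.19 ± 0.34 on the log2 scale (SE). Crtap, a subunit of the prolyl 3-hydroxylase complex, rose by 4.14 ± 0.39 on the log2 scale (SE, as for the log2 values of the other list genes). Colgalt2, a galactosyltransferase for hydroxylysine, was the lower gene (-2.18 ± 0.33), while its paralog Colgalt1, which was picked with its values in view, rose by 1.78 ± 0.23.

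Of 7 genes of procollagen processing that could be tested, 5 were higher and 2 were lower (median log2 fold change 2.68). The median was 2.14 over the 5 genes that met the count filter in the brains, and Adamts14 was not among them. Adamts14, a protease that removes the N-propeptide, rose by 6.30 ± 0.39 on the log2 scale, and Pcolce, which enhances removal of the C-propeptide, by 4.72 ± 0.75. The lower genes were Adamts3 (-2.14 ± 0.51) and Tll1 (-1.22 ± 0.28). Tll1 and Bmp1 are named here with their values known. Bmp1 encodes the protease that releases active Lox and stood at 477 ± 125 CPM in glioblastomas (SD, n = 5) and 26.3 ± 0.63 CPM in normal brains (SD, n = 3).

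The substrates were mostly higher too. Of 13 collagen genes tested, 11 were higher and 1, Col11a2 (-2.00 ± 0.27), was lower, with a median log2 fold change of 3.31. The largest rise was that of Col3a1, a fibrillar collagen, by 7.56 ± 1.10 on the log2 scale (8.38 without brain 3), followed by Col5a3, by 6.25 ± 0.73. Of 13 genes of elastic fibres and proteins that bind Lox, 10 were higher and 1, Fmod (-2.66 ± 0.62), was lower, with a median of 3.56. Fmod, which encodes a proteoglycan that guides Lox to collagen, was named after its values were seen and rested on 25 fragments in the tumours and 64 in the brains. Postn, a matricellular protein that promotes collagen crosslinking, rose by 6.34 ± 0.74, and Emilin1, an elastic fibre glycoprotein, by 5.75 ± 0.42 (6.44 without brain 3). The median of this list was 3.28 over the 10 genes that met the count filter in the brains, and Emilin1 was not among them.

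Of 15 hypoxia response genes, a program that is known to include Lox and Plod2 in hypoxic cells, 9 were higher and 1 was lower, with a median log2 fold change of 1.61. Car9, a carbonic anhydrase, rose by 4.92 ± 0.87 (5.69 without brain 1) and Adm, the adrenomedullin gene, by 4.27 ± 0.44. Car9 and Adm were too scarce in the brains to meet the count filter there, so neither could have been called lower. The median was 1.26 over the 13 genes that met it in the brains. Epas1, which encodes HIF-2 alpha, was lower (-0.63 ± 0.16). In the 5 lists together the share of genes called higher can be read against the 37.1% of all tested genes, and the share called lower against 33.9%. The adjusted p-values behind these counts come from the same edgeR fit over all genes, and no list was tested as a set.

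**Figure D5:**
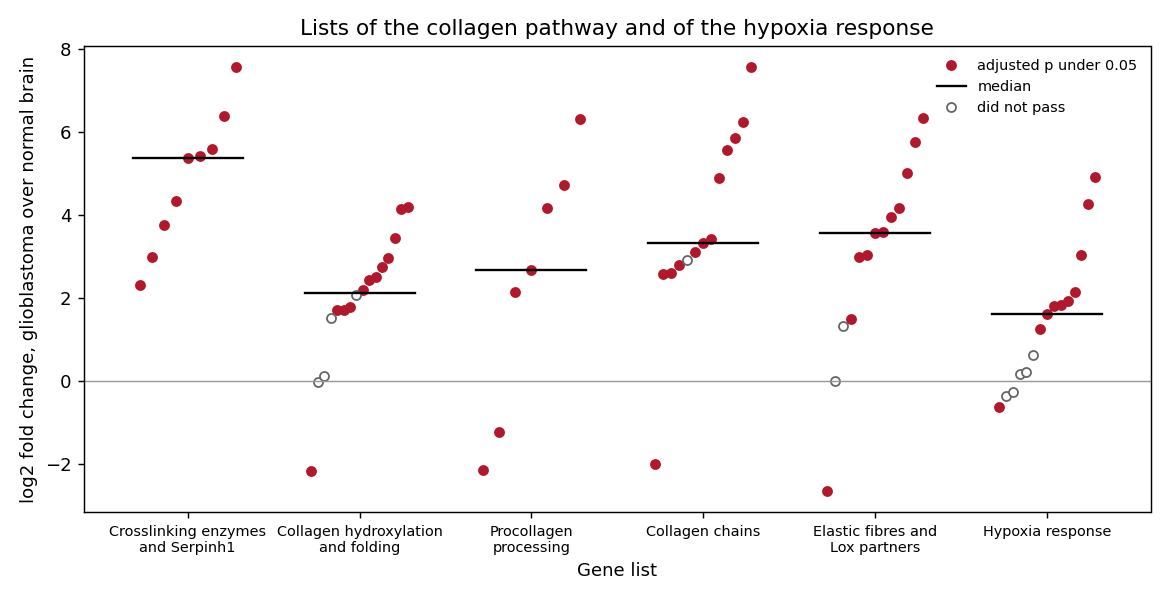
Log2 fold change of glioblastoma over normal brain for each tested gene of 6 lists, with the crosslinking genes and Serpinh1 at the left. Filled red points passed an adjusted p of 0.05, open points did not, and black lines are list medians, which run from 5.37 for the crosslinking genes to 1.61 for the hypoxia response. Over the genes that reached the count filter in the brains by themselves, these medians are 3.77 and 1.26.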

How the data were processed

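Per the submitters' processing notes, the tools were STAR 2.3.0e and Cuffdiff 2.1.1 and the build was mm9. Libraries were TruSeq RNA libraries, per the labels' protocols. No annotation release or strand setting is given in these sources. The authors deposited estimated counts of fragments and FPKM values for 30967 RefSeq transcripts in each library. The file header ties each library to its sample. Counts were summed per gene, using RefSeq and GENCODE symbols (315 transcripts had none), and rounded. Sums of all 9 genes were whole within 0.01 in every library. Loxl3, Plod2 and Plod3 overlap other genes (Htra2, B430319G15Rik, and Znhit1 with Mir702), whose reads could be mixed with theirs without strand.

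The test was edgeR 4.0.16 (TMM, default count filter, robust quasi-likelihood) over 14641 genes. Standard errors came from the F statistic. Shares were compared by exact permutation tests. Alternatives were DESeq2 1.42.0, RLE, upper quartile or no scaling factors, 2 other filters, limma 3.58.1 on log2(FPKM + 1) and log2(FPKM + 0.1), each library left out, brain 1 and tumour 4 left out, thinning, the fullest transcript of each gene and no genes with shared fragments. Named genes were the 9 genes, the nearest genes by profile and, per list, the 2 called genes that changed most in the commoner direction and 1 in the opposite direction, at 5 CPM or more in the higher group. The genes and lists were chosen with earlier results of these data known. R 4.3.3, Python 3.11.15, pandas 2.3.3, numpy 2.4.6, scipy 1.17.1 and matplotlib 3.10.9 were used.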

Additional observations from a re-analysis of the deposited data

How the results depend on the processing

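Each of the 9 genes kept its direction and its call in all 20 alternatives, and all 9 were called higher in each. The single transcript alternative took the transcript with the most fragments of each gene. Of all 16 transcripts of the 9 genes, 13 were called higher. Another 2, minor ones of Serpinh1, did not pass (edgeR adjusted p = 0.0538 and 0.070), and 1 of Lox was too low to test. Transcripts that were scarce in the brains could not have been called lower. Among them were a Lox transcript with 0 fragments in each brain and both Loxl4 transcripts. No share of all transcripts called higher is given beside this count, so it carries no weight of its own. The log2 fold changes of the low genes were smallest with limma on log2(FPKM + 1), which compresses low values (Lox 1.75, Loxl4 2.01). Leaving out 1 library moved them between 6.01 and 7.18 for Loxl4, between 7.22 and 7.78 for Loxl2 and between 3.93 and 4.57 for Loxl1. Among the list counts, the lower gene of the elastic fibre list, Fmod, dropped out in 2 alternatives (count 0 in both). With at least 5 CPM in 3 samples it was filtered out and not tested, as it averaged 3.08 CPM in normal brains and 0.444 CPM in glioblastomas. With libraries thinned to one depth it was not called. The difference in the Plod2 share ranged from 33.6 to 43.2 percentage points when 1 library was left out, and the exact p could not then fall below 0.0571. Depth limits Lox and Loxl4 most, with 5 brain fragments each. No paired analysis was possible because no label ties a brain to a tumour, and the file header only numbers the libraries within each group.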

Other observations

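The fragments of Lox, Loxl4 and Serpinh1 were also split by the authors between transcripts of the same gene. For Loxl4, the split between its 2 transcripts was even in tumours 1 and 4. In tumours 2, 3 and 5 the fuller transcript held 124, 193 and 475 fragments, against 24.7, 35.7 and 53.2 for the other. The brains held 3, 1 and 1 Loxl4 fragments, too few to show a split. For Serpinh1, a single transcript held 3009, 5393, 7700, 5279 and 9921 fragments in glioblastomas 1 to 5, against 59.9, 122 and 124 in normal brains 1 to 3. These splits are estimates and were not compared between the groups.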
